A study of Mus musculus with 24 samples.

Results

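Lactate and pyruvate handling is described here through 10 genes that make, move and oxidise both metabolites in mouse skeletal muscle. They are the lactate dehydrogenase subunits Ldha and Ldhb, the plasma membrane carriers Slc16a1 and Slc16a3 with their chaperone Bsg, the mitochondrial pyruvate carrier subunits Mpc1 and Mpc2, the pyruvate dehydrogenase subunit Pdha1, and the pyruvate dehydrogenase kinases Pdk1 and Pdk3. The genes were chosen by symbol, not by level, with earlier results of these data known, and are 10 of the 55487 genes listed. All 10 passed the filter on low counts in each of the 5 comparisons.

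Glycolysis in working muscle ends in pyruvate, which lactate dehydrogenase reduces to lactate in the cytosol or which enters mitochondria through a carrier in the inner membrane. Monocarboxylate carriers move lactate together with a proton across the plasma membrane, outward mainly from glycolytic fibers and inward mainly into oxidative fibers. In mitochondria the pyruvate dehydrogenase complex turns pyruvate into acetyl-CoA, and its kinases inactivate the complex by phosphorylation while its phosphatases restore it.

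The study asked how near-infrared photobiomodulation therapy (PBMT) acts on gene expression in resting muscle and in muscle run to exhaustion. PolyA RNA of the left tibialis anterior (TA) was sequenced in 24 wild-type (WT) male C57BL/6J mice, 5 to 7 weeks old, in 4 groups of 6. Sedentary PBMT mice received 830 nm light at 25 mW/cm² for 20 min, a dose of 30 J/cm², and sedentary controls were shaved and anesthetized for 20 min without light, with tissue taken 24 h later. Mice given light were shaved and anesthetized as well, and the paper states that it had no control with sham light or with heat alone. Fatigued PBMT and fatigued control mice were handled like their sedentary counterparts. They ran on a treadmill to exhaustion 24 h later and gave their muscle after the run. How long each mouse ran is not in the labels, and since mice ran to exhaustion, light and length of the run cannot be told apart in fatigued mice. Sedentary and fatigued mice were sequenced as separate projects, so exercise state and project cannot be told apart.

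The total count per mouse had a lowest value, median and highest value of 43271093, 45278264 and 46904076 in sedentary controls and of 46327516, 49421795.5 and 52775844 in sedentary PBMT mice. In fatigued controls these were 56792327, 61892167.5 and 68726155, and in fatigued PBMT mice 53122528, 60228908.5 and 68566029. Whether a count is a read or a read pair is not given in the sources used here. Every mouse had at least 1677 counts of each gene except Pdk3, which had 28 to 89 counts per mouse. Levels below are CPM, the count relative to the library size, scaled by the trimmed mean of M-values (TMM) over all 24 mice. A gene is said to be called, and to rise or fall, where the adjusted p of edgeR's quasi-likelihood test over all genes tested was under 0.05.

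Fast muscle markers were the most abundant of the marker lists. The summed level of 12 fast muscle markers, of which Myh4 was the most abundant with 20.4% of the sum, had a median of 154136 CPM in sedentary controls, 171612 CPM in sedentary PBMT mice, 213416 CPM in fatigued controls and 206817 CPM in fatigued PBMT mice. The 8 slow fiber markers, led by Myl3, summed to medians of 152, 131, 127 and 156 CPM in the same order. Lists for other cells also had low sums, with medians of 85.4 to 94.8 CPM for erythrocytes (Hbb-bs most abundant), 295 to 339 CPM for endothelium (Cdh5), 51.9 to 77.8 CPM for myeloid cells (Lyz2), 208 to 234 CPM for adipocytes (Fabp4) and 581 to 1239.9 CPM for fibroblasts (Col3a1). Keratinocyte markers summed to medians of 1.70 to 2.53 CPM, with Krt10 most abundant and a median count of 0 for Krt1, Krt5, Krt14 and Krt15. Ucp1 also had a median count of 0.

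A pair of mice stood apart from their groups. The root mean square distance of log2 CPM from the group was 0.501 in sedentary control 4, against 0.304 to 0.339 in the other sedentary controls, and 0.509 in fatigued PBMT 5, against 0.316 to 0.407 in the other fatigued PBMT mice. Sedentary control 4 had a fast muscle sum of 217483 CPM, where the rest of its group had 139059 to 160124 CPM. It also had the highest Ldha, Ldhb, Slc16a3 and Bsg and the lowest Mpc1, Pdha1 and Pdk1 of its group. Fatigued PBMT 5 had the lowest Ldha, Slc16a3, Mpc1, Mpc2, Pdha1 and Pdk1 of its group, the highest Pdk3 and a fibroblast sum of 3053 CPM. For the 10 genes and the lists below, calls that change without either mouse are given.

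After the run, genes of pyruvate entry into mitochondria (Mpc1, Mpc2) fell in 1 or both comparisons. The pyruvate dehydrogenase kinase Pdk1 fell in PBMT mice only, a call lost in 7 of 12 fits that leave out a mouse. Pdk4, a kinase outside the 10 genes with a higher level per kb, rose in both comparisons. Its calls were lost in 8 of 12 such fits in controls and 3 of 12 in PBMT mice. No gene that makes lactate or moves it across the plasma membrane was called. In control mice Mpc2 fell, which is 1 of 10 genes against 16.5% of the 14323 genes tested. In PBMT mice Mpc1, Mpc2 and Pdk1 fell, 3 of 10 against 26.9% of 14325, so both counts lie near the share called among all genes. In whole muscle, fewer cells of a type and less RNA per cell cannot be told apart. The median log2 difference between fatigued and sedentary mice was -0.10 over the 10 genes and -0.0040 over all genes in controls, and -0.082 against 0.0032 in PBMT mice. All genes called numbered 1341 higher and 1025 lower in controls, or 991 and 1707 with raw library totals in place of the scaling, and 2037 higher and 1822 lower in PBMT mice, or 1719 and 1986 with raw library totals. These p-values measure the spread between mice, 6 to a group. Without sedentary control 4 the calls in controls numbered 3956, and 4 of the 10 genes (Mpc1, Mpc2, Pdha1 and Pdk1) were called. In PBMT mice 1 to 4 of 10 were called when a mouse was left out, so the counts of 1 and 3 do not set controls and PBMT mice apart. Both comparisons use different mice, and the light comparisons use the same mice again.

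Light itself gave no call among the 10 genes. In sedentary mice edgeR called 0 of 10, against 0.0282% of 14177 genes tested, with 1 of 10 at an unadjusted p under 0.05 and 0 of 10 called by DESeq2 and by limma voom. Of all genes, 472 were higher and 610 lower at an unadjusted p under 0.05. DESeq2 called 60 and limma voom 6. The 4 genes that edgeR called, chosen here after their values were seen, were Ccn1, Egr1, Cited2 and Nfil3. That count was 2 without sedentary control 1, 2 or 6, 18 without sedentary control 4, and 10, 7 and 20 without sedentary PBMT 2, 4 and 5. In fatigued mice edgeR called 0 of 10, against 0% of 14574 genes, with 0 of 10 at an unadjusted p under 0.05 and 0 of 10 by either other tool. Of all genes, 157 were higher and 73 lower at that unadjusted p, and DESeq2 called 2 and limma voom 0. The difference between the light effects of fatigued and sedentary mice was called by edgeR for 0 of 10, against 0.00662% of 15108 genes, with 0 of 10 at an unadjusted p under 0.05 and 0 of 10 by the other tools. The single gene called there, named after its value was seen, was Nfil3, at 1.11 log2 (SE 0.161, adjusted p 0.0037), and 3 genes were called without sedentary PBMT 2.

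**Figure D1:**
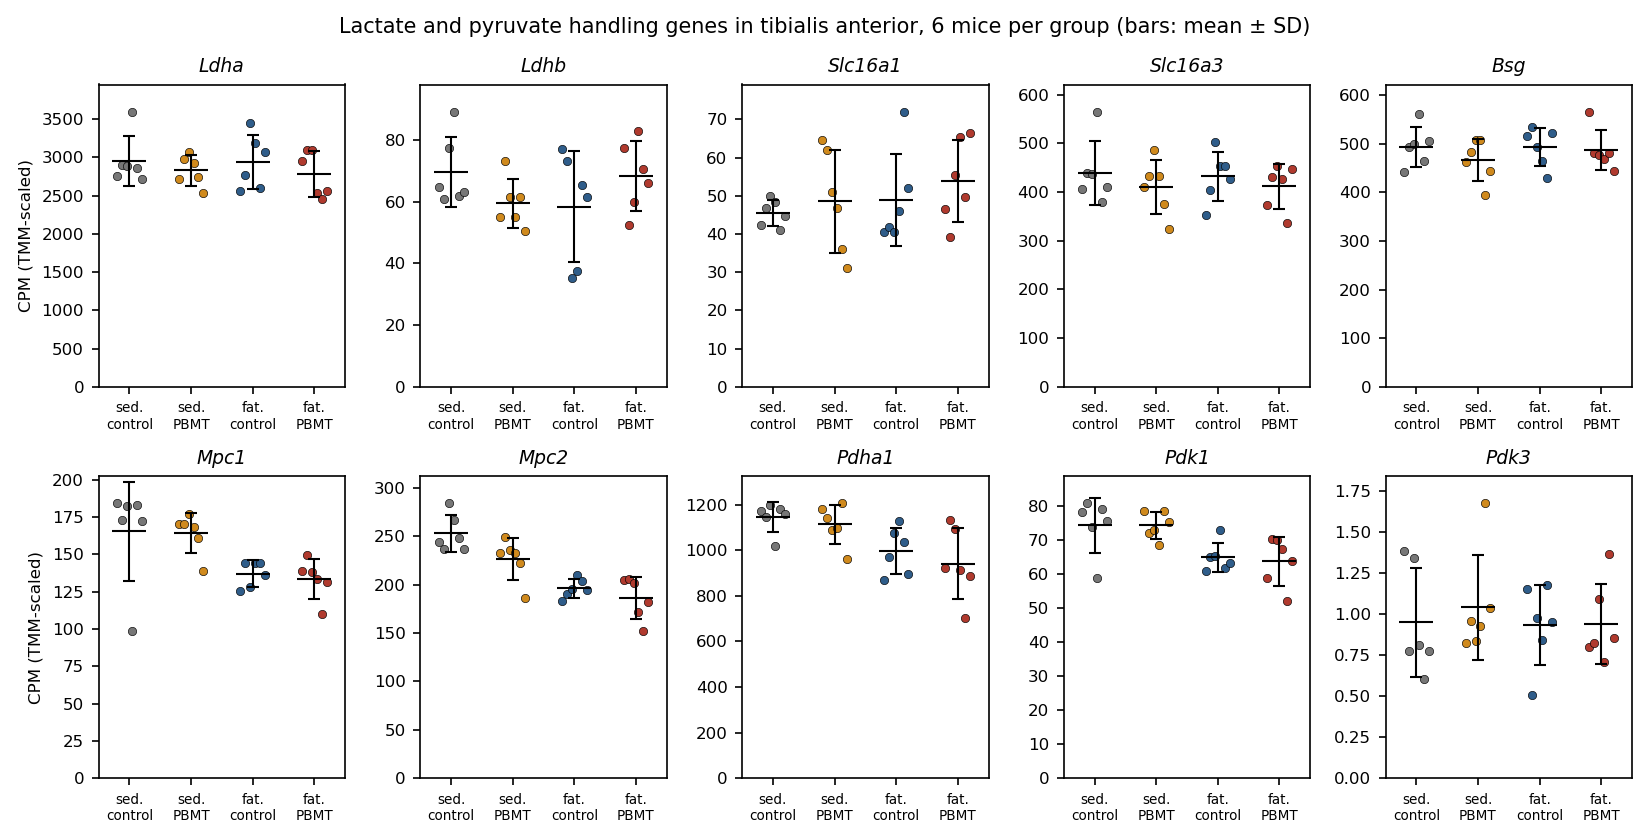
Level of each gene in CPM (vertical axis, from 0) in each mouse (points, 6 per group), with the mean and SD as a bar and whiskers. The Mpc2 points of fatigued controls, 183 to 209.9 CPM, all lie under those of sedentary controls, 237 to 284 CPM.

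Ldha encodes the M subunit of lactate dehydrogenase, the main form in fast muscle (ENSMUSG00000063229, GRCm38 chromosome 7, 46841475 to 46855627, plus strand). Per kb of the principal transcript its level was the highest of the 10 genes, with a median of 1628 CPM per kb over 24 mice and a range of 1392 to 2036 that no other of these genes reached. Ldha levels ran from 2722 over a median of 2875 to 3595 CPM in sedentary controls and from 2536 over 2837 to 3073 CPM in sedentary PBMT mice. In fatigued controls they ran from 2565 over 2918 to 3456 CPM and in fatigued PBMT mice from 2458 over 2757 to 3102 CPM. The 4 groups overlapped throughout, and their medians differed at most 1.06-fold. The log2 difference of PBMT from control was -0.055 (SE 0.0824, adjusted p 0.861) in sedentary and -0.078 (SE 0.0921, adjusted p 1.00) in fatigued mice, with 95% intervals of -0.23 to 0.12 and -0.28 to 0.12. Fatigued and sedentary mice differed in Ldha by 0.0016 (SE 0.0963) in controls and -0.021 (SE 0.0811) in PBMT mice.

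Ldhb encodes the H subunit, typical of oxidative fibers and heart (ENSMUSG00000030246, chromosome 6, 142490249 to 142507957, minus strand). Its median level was 48.0 CPM per kb over 24 mice, and the Ldhb share of Ldha plus Ldhb per kb had group medians of 3.06% in sedentary controls, 2.65% in sedentary PBMT mice, 2.97% in fatigued controls and 3.41% in fatigued PBMT mice. Ldhb ran from 60.8 over a median of 63.9 to 89.1 CPM in sedentary controls and from 50.6 over 58.3 to 73.1 CPM in sedentary PBMT mice. In fatigued controls it ran from 35.3 over 63.4 to 77.2 CPM, and in fatigued PBMT mice from 52.3 over 68.4 to 82.9 CPM. Fatigued controls 3 and 4 were low, at 35.3 and 37.6 CPM, and the other 4 of that group lay between 61.4 and 77.2 CPM.

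The light differences of Ldhb had opposite signs in the resting and the exhausted muscle, and neither was called. In sedentary mice the log2 difference was -0.22 (SE 0.102, adjusted p 0.648), with 5 of 6 PBMT mice under the control median. In fatigued mice it was 0.23 (SE 0.196, adjusted p 1.00), with 4 of 6 PBMT mice above the control median. Leaving out a mouse gave -0.28 to -0.14 at rest and 0.11 to 0.32 after the run. The difference between both effects, tested itself, was 0.45 (SE 0.231, 95% interval -0.027 to 0.93, adjusted p 0.946). Slow fiber markers had a median light difference of -0.14 log2 at rest (3 of 8 positive), 0.36 after the run (8 of 8) and 0.30 in the difference of light effects (8 of 8), none of them called. Without fatigued PBMT 5 the median was -0.0019 after the run and 0.069 in the difference, with 4 of 8 positive in each, while Ldhb had 0.21 and 0.43. Myeloid markers had median light differences of -0.55 log2 at rest (0 of 8 positive) and 0.18 after the run (7 of 8). Fibroblast markers had -0.18 (0 of 5) and 0.12 (5 of 5). Without fatigued PBMT 5 the values after the run were -0.13 (1 of 8) and -0.11 (0 of 5), with the same sign as at rest. Erythrocyte, endothelial and adipocyte medians after the run also went from positive to negative without that mouse. The tested keratinocyte marker Krt10 went from 0.97 at rest to -0.089, or -0.068 without that mouse. Whether fiber makeup has a part in the Ldhb values was not tested. After the run Ldhb differed by -0.24 (SE 0.181, adjusted p 0.388) in controls and by 0.20 (SE 0.109, adjusted p 0.189) in PBMT mice. With a mouse left out, these were -0.34 to -0.13 and 0.14 to 0.27.

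Slc16a1 encodes the carrier MCT1, linked with lactate uptake by oxidative fibers (ENSMUSG00000032902, chromosome 3, 104638668 to 104658462, plus strand). Slc16a3 encodes MCT4, the carrier of lactate export from glycolytic fibers (ENSMUSG00000025161, chromosome 11, 120948480 to 120960868, plus strand). Per kb, Slc16a3 had a median level of 99.1 CPM per kb over 24 mice and Slc16a1 one of 10.6 CPM per kb, with ranges that did not meet. Slc16a1 made up group medians of 9.51% of their sum per kb in sedentary controls, 9.45% in sedentary PBMT mice, 9.67% in fatigued controls and 11.8% in fatigued PBMT mice, all overlapping in range.

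Across the groups Slc16a1 spanned 31.0 to 71.9 CPM and Slc16a3 324 to 565 CPM, and no difference of either was called. Group medians of Slc16a1 were 45.7, 49.0, 44.0 and 52.6 CPM in sedentary controls, sedentary PBMT mice, fatigued controls and fatigued PBMT mice. Spread was uneven for Slc16a1, with an SD of 3.47 CPM in sedentary controls and 13.5 CPM in sedentary PBMT mice. Light differences of Slc16a1 were 0.099 log2 (SE 0.145, adjusted p 0.857) at rest and 0.14 log2 (SE 0.161, adjusted p 1.00) after the run. Those of Slc16a3 were -0.092 (SE 0.103, adjusted p 0.811) and -0.070 (SE 0.0919, adjusted p 1.00). With a mouse left out, Slc16a3 had -0.15 to -0.014 at rest and -0.12 to -0.019 after the run. Slc16a1 then had 0.068 to 0.28 for light after the run. After the run Slc16a1 differed by 0.11 log2 in controls and 0.15 log2 in PBMT mice (adjusted p 0.585 and 0.579), the value in controls being -0.043 without fatigued control 5, and Slc16a3 by -0.016 and 0.0068 log2 (adjusted p 0.932 and 0.966).

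Bsg encodes basigin, the membrane glycoprotein that both carriers need to reach the cell surface (ENSMUSG00000023175, chromosome 10, 79704491 to 79711969, plus strand). It varied least between mice of the 10 genes, 1.43-fold from the lowest, 396 CPM, to the highest, 565 CPM. Its median level of 316 CPM per kb over 24 mice was 3rd of the 10 genes. Log2 differences of Bsg were -0.075 and -0.021 for light at rest and after the run, and 0.0068 and 0.061 for the run in controls and PBMT mice, none of them called. With a mouse left out, Bsg had -0.11 to -0.035 for light at rest and 0.012 to 0.087 for the run in PBMT mice. The carrier system as measured by these 3 transcripts had no call in any of the 5 comparisons by edgeR, DESeq2 or limma voom, nor an unadjusted p under 0.05 by edgeR.

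Mpc1 and Mpc2 encode the subunits that together form the mitochondrial pyruvate carrier. Mpc1 lies on chromosome 17, 8282904 to 8297661, plus strand (ENSMUSG00000023861), and Mpc2 on chromosome 1, 165460637 to 165481214, plus strand (ENSMUSG00000026568). Their median levels over 24 mice were 151 CPM per kb for Mpc1 and 203 CPM per kb for Mpc2 on the principal transcripts. With the length of all exons they were 69.4 and 28.3 CPM per kb, so which subunit is higher depends on the length used. On the principal transcripts the ratio of Mpc1 to Mpc2 had group medians from 0.743 to 0.780, and sedentary control 4 stood at 0.394.

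Mpc2 was lower in exhausted than in resting muscle of control mice without overlap. It ran from 237 over a median of 246 to 284 CPM in sedentary controls and from 183 over 195 to 209.9 CPM in fatigued controls. All 6 fatigued controls lay under the lowest sedentary control. Mpc2 fell by 0.36 on the log2 scale (SE 0.0649, 95% interval -0.50 to -0.22, adjusted p 0.0017), and it was called in 20 of 20 alternatives. In PBMT mice it ran from 187 over 233 to 249 CPM at rest and from 153 over 192 to 206 CPM after the run. There the groups overlapped, as for all 10 genes, with 3 of 6 fatigued mice under the lowest sedentary mouse and 6 of 6 under the sedentary median. Mpc2 fell there too, with a log2 difference of -0.28 (SE 0.0870, adjusted p 0.0278). That call was lost without fatigued PBMT 4 (adjusted p 0.0511), 5 (0.0528), 6 (0.0527), or sedentary PBMT 1 (0.0510) or 3 (0.0523), within a range of 0.0070 to 0.0528 over all alternatives. Light differences of Mpc2 were -0.15 (SE 0.0746, adjusted p 0.648) at rest, with 5 of 6 PBMT mice under the lowest control, and -0.072 (SE 0.0746, adjusted p 1.00) after the run. With a mouse left out, these were -0.18 to -0.10 and -0.10 to -0.022.

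Mpc1 ran from 98.4 over a median of 178 to 184 CPM in sedentary controls and from 125 over 140.4 to 144 CPM in fatigued controls. Sedentary control 4, at 98.4 CPM, was under every fatigued control, and the other 5 sedentary controls, at 173 to 184 CPM, were above them all. With it the log2 difference was -0.26 (SE 0.124, adjusted p 0.160), and without it -0.39 (adjusted p 0.00015), which is called. The adjusted p ranged from 0.00015 to 0.273 over the 21 alternatives. In PBMT mice Mpc1 ran from 139 over 169 to 177 CPM at rest and from 110.0 over 136 to 149.8 CPM after the run, with 5 of 6 fatigued mice under the lowest sedentary mouse. There Mpc1 fell by 0.30 on the log2 scale (SE 0.0775, adjusted p 0.0113), a call that 21 of 21 alternatives kept. Light differences of Mpc1 were -0.0065 (SE 0.127) at rest, with 6 of 6 PBMT mice under the control median and -0.12 (adjusted p 0.550) without sedentary control 4, and -0.038 (SE 0.0709) after the run, with 0.011 without fatigued PBMT 5.

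Counts of Mpc1 may be shared with a near-identical copy. The processed pseudogene Mpc1-ps matches its transcript over 330 bases at 99.7% identity and held 648 to 1301 counts per mouse, 13.8% of the Mpc1 count. Mpc1-ps itself differed after the run by -0.36 log2 in controls (adjusted p 0.0593) and fell by 0.36 log2 in PBMT mice (log2 difference -0.36, adjusted p 0.0195). With both summed, Mpc1 gave -0.28 (adjusted p 0.141) and -0.30 (adjusted p 0.0110), on the same sides of the threshold as Mpc1 alone. For the other genes, copies and overlapping genes that share sequence held at most 0.479% of the count, the value for Ldhb and its pseudogene Gm5514.

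Pdha1 encodes the E1 alpha subunit of pyruvate dehydrogenase, the target of the kinases (ENSMUSG00000031299, chromosome X, 160122209 to 160138413, minus strand). Its median level of 383 CPM per kb over 24 mice was next below that of Ldha. Pdha1 ran from 1017 over a median of 1164 to 1199.5 CPM in sedentary controls and from 868 over 1004 to 1130.3 CPM in fatigued controls. In PBMT mice it ran from 962 over 1121 to 1205 CPM at rest and from 703 over 917 to 1132 CPM after the run. Groups overlapped in both comparisons, although 6 of 6 fatigued controls and 5 of 6 fatigued PBMT mice were under the median of their resting group. The log2 difference was -0.19 (SE 0.0806, adjusted p 0.115) in controls and -0.24 (SE 0.104, adjusted p 0.103) in PBMT mice, and neither was called. Without sedentary control 4 the difference in controls was called at -0.24 (adjusted p 0.0206), and without fatigued PBMT 2 that in PBMT mice at -0.30 (adjusted p 0.0364). With raw library totals both were called, at adjusted p 0.0349 and 0.0293. Over all alternatives the adjusted p ranged from 0.0206 to 0.235 in controls and from 0.0293 to 0.185 in PBMT mice. Light differences of Pdha1 were -0.036 (SE 0.0745) at rest and -0.081 (SE 0.107) after the run, the latter -0.14 to -0.011 with a mouse left out.

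Pdk1 encodes a pyruvate dehydrogenase kinase known for its response to hypoxia (ENSMUSG00000006494, chromosome 2, 71873224 to 71903858, plus strand). It ran from 58.8 over a median of 77.0 to 80.9 CPM in sedentary controls and from 61.1 over 64.3 to 73.0 CPM in fatigued controls. Sedentary control 4 was the lowest of these 12 mice, and the other sedentary controls, at 73.8 to 80.9 CPM, lay above every fatigued control. The log2 difference was -0.19 (SE 0.0801, adjusted p 0.121), and -0.26 (adjusted p 0.0025) without sedentary control 4. Raw library totals also gave a call in controls (-0.26, adjusted p 0.0304), and the adjusted p ranged from 0.0025 to 0.23996. In PBMT mice Pdk1 ran from 68.7 over 74.2 to 78.6 CPM at rest and from 52.0 over 65.7 to 70.4 CPM after the run, with 4 of 6 fatigued mice under the lowest sedentary mouse. Pdk1 fell there by 0.22 on the log2 scale (SE 0.0751, adjusted p 0.0421).

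That call of Pdk1 in PBMT mice is lost in 7 of 12 fits that leave out a mouse. With the adjusted p in brackets, these mice are fatigued PBMT 1 (0.0664), fatigued PBMT 5 (0.0735), fatigued PBMT 6 (0.0693), sedentary PBMT 1 (0.0803), sedentary PBMT 3 (0.0577), sedentary PBMT 5 (0.0768), sedentary PBMT 6 (0.0578). Without a filter on low counts it was also lost (adjusted p 0.0738), within a range of 0.0127 to 0.105 over all alternatives. Light differences of Pdk1 were 0.0032 (SE 0.0790) at rest and -0.027 (SE 0.0756) after the run.

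Pdk3 encodes a kinase that muscle expresses little (ENSMUSG00000035232, chromosome X, 93764607 to 93832201, minus strand). Its levels spanned 0.506 to 1.67 CPM, and its median of 0.420 CPM per kb over 24 mice was the lowest of the 10 genes. Its intervals were the widest, -0.39 to 0.67 log2 for light at rest and -0.63 to 0.34 log2 for the run in PBMT mice, so differences within these bounds are not excluded. None of its differences was called.

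**Figure D2:**
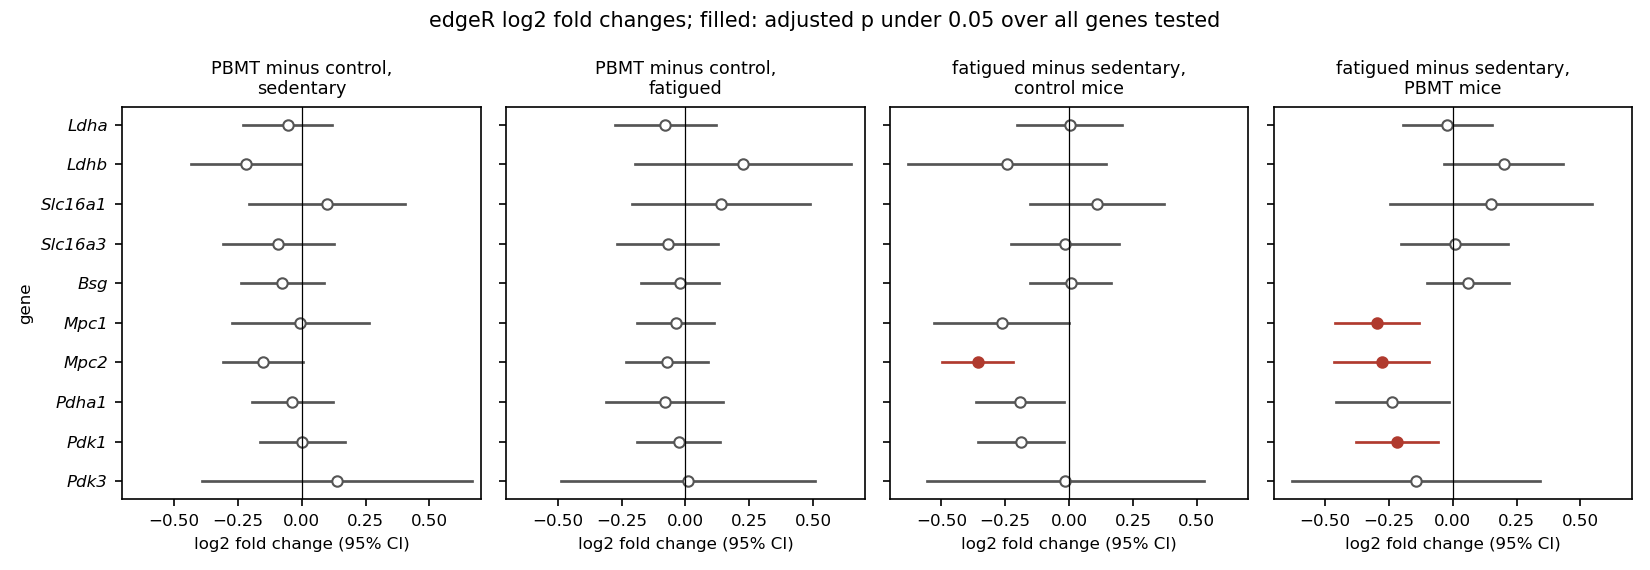
Log2 fold change (horizontal axis) with its 95% interval (line) for each of the 10 genes (rows) in 4 comparisons, where filled points are called by edgeR. The filled points are Mpc2 in controls at -0.36 and Mpc1, Mpc2 and Pdk1 in PBMT mice at -0.30, -0.28 and -0.22.

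Ordered by group median, Mpc1, Mpc2 and Pdha1 each went from sedentary controls through sedentary PBMT mice and fatigued controls to fatigued PBMT mice. Pdk1 had the same order with the fatigued groups exchanged. Ldha, Slc16a3, Bsg and Pdk3 had their highest median in fatigued controls, and Ldhb and Slc16a1 theirs in fatigued PBMT mice. In 30 of 30 pairs of neighbours in these orders the ranges overlapped. The highest group median was 1.31 times the lowest for Mpc1, 1.28 times for Mpc2 and 1.27 times for Pdha1, and at most 1.21 times for the other genes.

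Marker lists were read beside the lower Mpc1, Mpc2 and Pdk1, against 16.5% of all genes tested that were called in controls and 26.9% in PBMT mice, so that 1 call in a list of 5 to 8 markers lies near or under that share. Between resting and exhausted muscle, 4 of 12 fast muscle markers rose in controls and 6 of 12 in PBMT mice, and their sum ran from 139059 to 217483 CPM in sedentary controls, 144680 to 181320 CPM in sedentary PBMT mice, 177054 to 227841 CPM in fatigued controls and 184018 to 224259 CPM in fatigued PBMT mice. Of 5 fibroblast markers 2 rose in controls and 4 in PBMT mice, with sums of 616 to 964 and 502 to 971 CPM in the resting groups and 878 to 1488 and 812 to 3053 CPM in the exhausted groups. Of 8 myeloid markers 1 rose and 2 fell in controls and 2 rose and 2 fell in PBMT mice, where S100a8 and S100a9 fell in both. Slow fiber markers had 1 of 8 higher and 2 lower in controls and 1 higher in PBMT mice. Endothelial markers had 1 of 7 higher in controls, and 1 higher and 1 lower in PBMT mice. In adipocytes 1 marker of 5 tested rose in controls, the tested keratinocyte marker Krt10 fell in PBMT mice, and no erythrocyte marker was called. Without sedentary control 4, fast muscle markers called higher in controls numbered 9 of 12, Casq2, Csf1r and Cidec were no longer called there and Emcn was called lower. Without fatigued PBMT 5, Col3a1, Dpt and Krt10 were no longer called in PBMT mice and Hba-a2 was called lower. The part of these calls in the values of the 10 genes was not tested. For light, edgeR, DESeq2 and limma voom each called 0 markers in either state, with 4 at an unadjusted p under 0.05 by edgeR at rest and 1 after the run.

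Other genes of the pathway, 27 that the annotation holds and 20 that passed the filter, were read from a list by function. After the run 2 were called higher and 3 lower in controls, 5 of 20 against 16.5% of all genes tested, with a median log2 difference of -0.061, and 4 higher and 2 lower in PBMT mice, 6 of 20 against 26.9%, with a median of 0.026. For light, edgeR called 0 of 20 at rest, with 1 at an unadjusted p under 0.05, and 0 of 20 after the run, with 0 at an unadjusted p under 0.05. DESeq2 and limma voom also called 0 in both. Without sedentary control 4 more were called after the run in controls, Pdhb (-0.27, adjusted p 0.0155) and Dlat (-0.30, adjusted p 0.0102) lower and Pdp2 (0.57, adjusted p 0.0252), Pcx (0.46, adjusted p 8.7e-05) and Pkm (0.34, adjusted p 0.0049) higher. Without fatigued PBMT 5, Pkm was called higher in PBMT mice (0.26, adjusted p 0.0190).

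Within the pyruvate dehydrogenase complex, 4 other subunits were tested, and Dld, the shared E3 subunit, fell in both comparisons after the run. Dld ran from 335 over a median of 431 to 442 CPM in sedentary controls and from 294 over 321 to 369 CPM in fatigued controls, a log2 difference of -0.34 (SE 0.0835, adjusted p 0.0121). In PBMT mice it ran from 348 over 411 to 426 CPM and from 243 over 308 to 375 CPM, a log2 difference of -0.36 (SE 0.0930, adjusted p 0.0114). Pdp1, the phosphatase that reactivates the complex, fell without overlap in both. Its medians were 99.9 CPM in sedentary and 56.4 CPM in fatigued controls, a log2 difference of -0.82 (SE 0.120, adjusted p 0.00030), and 98.8 and 51.4 CPM in PBMT mice, a log2 difference of -0.95 (SE 0.107, adjusted p 4.0e-05).

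Pdk4, the kinase induced by fasting and exercise, rose in both. It ran from 382 over a median of 529 to 699 CPM in sedentary controls and from 525.8 over 815 to 959.6 CPM in fatigued controls, a log2 difference of 0.57 (SE 0.176, adjusted p 0.0380). In PBMT mice it ran from 256 over 399 to 525 CPM and from 467 over 708 to 1156 CPM, a log2 difference of 0.94 (SE 0.275, adjusted p 0.0249). In controls the Pdk4 call was lost without any of fatigued control 2 (0.0595), fatigued control 3 (0.0626), fatigued control 4 (0.0736), fatigued control 5 (0.0809), sedentary control 1 (0.0844), sedentary control 2 (0.0824), sedentary control 3 (0.0878) or sedentary control 4 (0.0511), with no filter (0.123), with raw library totals (0.0507) and with all 24 mice in the fit (0.112), adjusted p in brackets and 0.0120 to 0.123 over all alternatives. In PBMT mice it was lost without fatigued PBMT 1 (0.0503), sedentary PBMT 1 (0.0533) or sedentary PBMT 2 (0.0511) and with no filter (0.0675), out of a range of 0.0067 to 0.0925. Of the level of all 4 kinases per kb, Pdk4 held group medians of 36.1% and 30.8% in sedentary controls and PBMT mice and 49.6% and 46.3% in fatigued controls and PBMT mice. Pdk1 held 3.55%, 4.00%, 2.79% and 2.91% of the level per kb in the same order, and Pdk2 held 60.5%, 65.4%, 47.5% and 50.6%. Pdk2 itself was not called, with log2 differences of -0.077 and -0.068.

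Gpt2, the mitochondrial enzyme that exchanges pyruvate and alanine, rose by 0.30 log2 in controls (SE 0.0920, adjusted p 0.0341) and by 0.45 log2 in PBMT mice (SE 0.131, adjusted p 0.0201). In controls the Gpt2 call was lost without any of fatigued control 1 (0.0633), fatigued control 2 (0.078), fatigued control 3 (0.0535), fatigued control 4 (0.0633), fatigued control 6 (0.0551), sedentary control 1 (0.065), sedentary control 3 (0.0666) or sedentary control 5 (0.0799), and with all 24 mice in the fit (0.0769), adjusted p in brackets and 0.0152 to 0.0799 over all alternatives. Fatigued and sedentary PBMT mice did not overlap in Gpt2, at 418 to 628 against 249 to 409 CPM. Its cytosolic counterpart Gpt fell in controls (-0.34, SE 0.0901, adjusted p 0.0180) and was not called in PBMT mice (-0.11, SE 0.112, adjusted p 0.482). Pcx, which carboxylates pyruvate, rose in PBMT mice (0.38, SE 0.0954, adjusted p 0.0091). In controls Pcx was not called with all mice (0.31, SE 0.123, adjusted p 0.0931), where 6 of 6 fatigued mice were above the sedentary median and sedentary control 4 had the highest level, 81.9 CPM. Emb, embigin, a chaperone related to basigin, rose in PBMT mice (1.295, SE 0.419, adjusted p 0.0353) at levels of 1.44 to 8.25 CPM after the run, the highest in fatigued PBMT 5. Without fatigued PBMT 5 the Emb difference was 0.67 (adjusted p 0.0383). The call was lost without sedentary PBMT 1 (0.0786), sedentary PBMT 2 (0.058), sedentary PBMT 3 (0.0668) or sedentary PBMT 5 (0.0758), with no filter (0.101) and by limma voom (0.0751), adjusted p in brackets and 0.0040 to 0.113 over all alternatives.

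**Figure D3:**
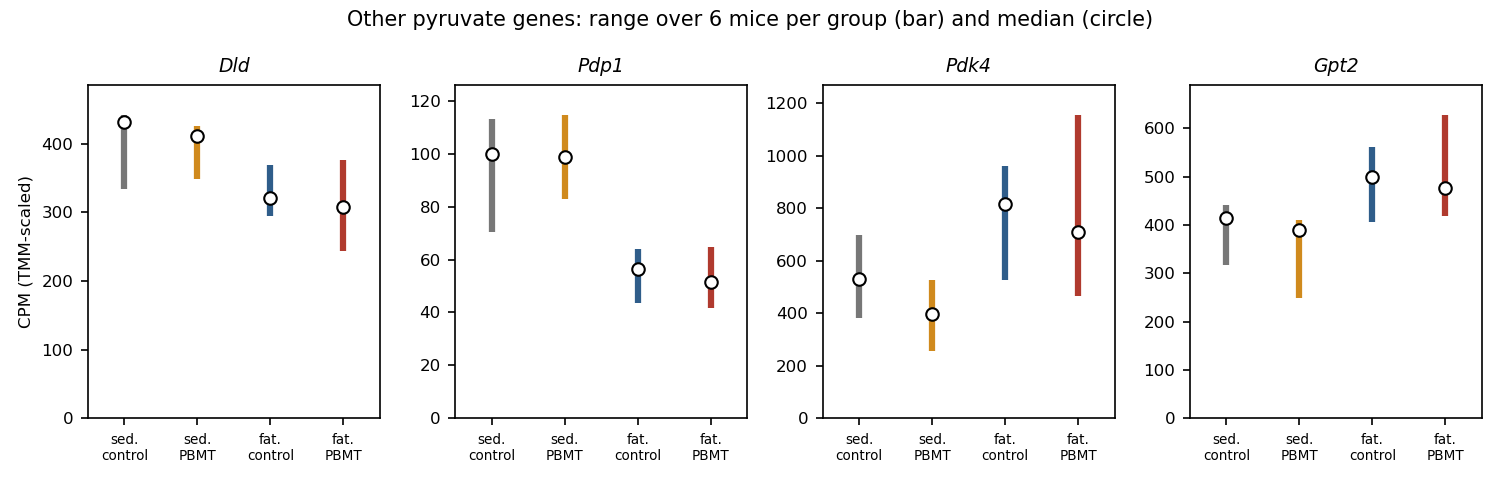
Range (bar) and median (circle) over 6 mice per group of Dld, Pdp1, Pdk4 and Gpt2 in CPM (vertical axis, from 0). Pdp1 medians were 99.9 and 98.8 CPM in the sedentary groups and 56.4 and 51.4 CPM in the fatigued groups.

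Genes of 8 regulators known to act on this pathway were read the same way, and 4 rose in controls while 4 rose and 1 fell in PBMT mice, 4 of 8 against 16.5% and 5 of 8 against 26.9% of all genes tested. For light, edgeR and limma voom called 0 of 8 in either state, with 1 at an unadjusted p under 0.05 by edgeR at rest and 0 after the run. DESeq2 called Foxo1 at rest (-0.55, SE 0.115, adjusted p 0.0017), where edgeR gave -0.55 (SE 0.105, adjusted p 0.0896), or -0.59 (adjusted p 0.0380) without sedentary control 4, and 0 of 8 after the run. Ppargc1a, the coactivator of mitochondrial genes, had medians of 36.8 and 41.3 CPM in sedentary controls and PBMT mice and of 175 and 204 CPM in fatigued controls and PBMT mice. It rose by 2.11 log2 (SE 0.298, adjusted p 0.00050) in controls and by 2.05 log2 (SE 0.342, adjusted p 0.0014) in PBMT mice. Foxo1, an activator of Pdk4, rose by 1.68 log2 (SE 0.220, adjusted p 0.00021) and 2.14 log2 (SE 0.183, adjusted p 1.1e-05). Ppard rose by 0.43 and 0.46 log2 (adjusted p 0.0036 and 0.0012), and Myc by 0.84 and 1.20 log2 (adjusted p 0.0239 and 0.0032). The Myc call in controls was lost without fatigued control 6 (0.0569), sedentary control 2 (0.0552), sedentary control 5 (0.0582) or sedentary control 6 (0.0519) and by limma voom (0.0533), adjusted p in brackets and 0.0038 to 0.0582 over all alternatives. Ppargc1b differed by -0.46 in controls (adjusted p 0.0689) and fell in PBMT mice (-0.44, adjusted p 0.0103). Esrra, Hif1a and Epas1 were not called in either comparison.

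Likeness of pattern was measured over 24 mice as Pearson's r of log2 CPM after subtracting group means, and it is given as a description. The labels do not say which mice shared a library preparation, and depth differed between mice of a project. Nearest to Ldha were the glycolytic genes Eno3 (r 0.946) and Tpi1 (0.917), then Eef1g (0.875). Ldhb was nearest to Idh2 (0.856), Rhou (0.838) and Col23a1 (0.824). Genes nearest to Slc16a1 were Slc38a3 (0.9102, and 0.857 without the 2 mice farthest from the median), Perm1 (0.905) and P2ry2 (0.892). For Slc16a3 they were Smox (0.863), Fhod3 (0.863) and Tom1l2 (0.8596). Bsg had lower values, with 0610038B21Rik at 0.775, 2410080I02Rik at 0.7698 and Bzw2 at 0.756.

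Mpc2 was nearest to Ndufb8 (r 0.953), Atp5g1 (0.9204) and Ndufc2 (0.9196), and Pdha1 to Ndufs1 (0.948), Dld (0.941) and Gfm1 (0.901). Mpc1 was nearest to Lypla1 (0.926), mt-Co3 (0.923) and Tmem126a (0.922), values that dropped to 0.755, 0.776 and 0.787 without sedentary control 4 and fatigued PBMT 5. Pdk1 was nearest to Shoc2 (0.917), Rab6a (0.913) and Mtmr6 (0.909), and Pdk3 to Man1c1 (0.7501), Ttc8 (0.743) and Cyba (0.739). Among the 45 pairs of the 10 genes, the highest values were those of Pdha1 with Pdk1 (0.735, and 0.5999 without the 2 farthest mice), Ldha with Slc16a3 (0.723, and 0.597) and Mpc1 with Pdk1 (0.714, and 0.284). The value for Mpc1 with Pdk1 rests on sedentary control 4 and fatigued PBMT 5. Mpc1 with Mpc2 had 0.307, and 0.586 without those mice. When each pair left out the 2 mice farthest from the median in its gene named first, the order differed, with Ldha and Mpc2 highest (0.735, from 0.648 over 24 mice), and Ldha with Mpc1 went from -0.185 to 0.480. The lowest value was that of Ldhb with Pdk1 (-0.53, and -0.55 without the 2 farthest mice).

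Promoter sequence was read from RefSeq (GRCm38.p6) over the 250 bases before each start, for 9 of 10 genes, Bsg being the other. Motifs searched on both strands were the estrogen-related receptor half-site AAGGTCA, held by 4.08% of 32851 promoters, the E-box CACGTG (6.02%), the nuclear respiratory factor 1 motif (0.782%) and the ETS motif CCGGAAG (6.91%). Ldha held 2 CACGTG matches in a window, Slc16a1 held 1, and Mpc1 held 1 CCGGAAG. The other genes held none of these motifs in their windows, which says nothing of the factors. The Mpc2 window and the Pdk1 window at chr2:71874654-71874903 hold 0 bases outside annotated exons. Sequence is shown for Mpc1 and Pdk1, both lower in exhausted muscle of PBMT mice, 5′ to 3′ on the plus strand, for chr17:8283537-8283761 (225 bases that lie outside annotated exons) and chr2:71872974-71873223 (250 bases), with CCGGAAG in capitals.
Mpc1: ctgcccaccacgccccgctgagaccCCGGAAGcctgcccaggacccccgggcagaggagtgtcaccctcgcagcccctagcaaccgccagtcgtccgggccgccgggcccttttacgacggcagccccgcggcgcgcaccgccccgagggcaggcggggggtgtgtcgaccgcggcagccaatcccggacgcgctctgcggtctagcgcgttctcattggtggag
Pdk1: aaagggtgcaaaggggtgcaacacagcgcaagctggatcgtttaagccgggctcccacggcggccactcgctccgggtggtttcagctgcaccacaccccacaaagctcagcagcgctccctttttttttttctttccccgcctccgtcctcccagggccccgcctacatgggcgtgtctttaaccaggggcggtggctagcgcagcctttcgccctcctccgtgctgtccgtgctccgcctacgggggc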

How the data were processed

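The authors deposited raw read counts per gene for each mouse, from polyA libraries made with a directional kit, and the submitters' processing notes name Trimmomatic, STAR 2.7.1a, Picard 2.20.4, StringTie 2.0.4, featureCounts 1.6.0, HTSeq and GRCm38, with no roles given. The strand setting of the counting is not given in the sources used here, so antisense neighbours may share counts. Gene ids were matched to symbols, coordinates and principal transcripts of GENCODE M21, which held 55227 of 55487 ids.

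Counts were tested in R 4.3.3 with edgeR 4.0.16 (filterByExpr with a minimum count of 10, TMM, robust quasi-likelihood fit, prior count 2 for fold changes). Each comparison of 2 groups used its 12 mice, and the difference of light effects used all 24. Tests were two-sided. P-values were adjusted by Benjamini-Hochberg across every gene in a fit, with a threshold of 0.05. The edgeR fits of 2 groups were tested on simulated data. All 10 genes were reported in every comparison, other pathway genes, regulators and markers came from lists by function (a list of markers is not reported here), and likeness named the 3 nearest genes. The genes and lists were chosen with earlier results of these data known.

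Other settings tried were leaving out the filter, asking for 10 counts or more in each mouse, DESeq2 size factors, raw library totals, DESeq2 1.42.0, limma 3.58.1 voom, the replicate number as a block, all 24 mice in the fit, and leaving out each mouse. Applying them to pathway genes and regulators, summing Mpc1 with Mpc1-ps, and leaving out sedentary control 4 and fatigued PBMT 5 for all listed genes, were chosen after seeing the data. Levels per kb used the principal transcript. With the length of all exons instead, the order of levels changed for Mpc2, Slc16a3, Ldhb, Pdk1 and Slc16a1. Near-identical copies were sought as matches of at least 150 bases at 95% identity. No pair of mice agreed within sampling noise, the lowest chi-square per gene being 13.4 within groups and 11.5 between them.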

Additional observations from a re-analysis of the deposited data

Results flagged for a closer look

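Values far from the rest of their group of 6 mice were found in 19 of 92 groups tested, 9 of them among the 40 groups of the 10 genes. The rule sets apart about 1 in 20 groups of independent, normally distributed values. Groups of different genes share mice here, so the flags are not independent and their number is not comparable with that rate. Many of the flagged values belong to sedentary control 4. It had the highest Ldha (3595 CPM, others 2722 to 2907) and Slc16a3 (565 CPM, others 379.7 to 440.2). The same mouse had the lowest Mpc1 (98.4 CPM, others 173 to 184), Pdha1 (1017 CPM, others 1147 to 1199.5) and Pdk1 (58.8 CPM, others 73.8 to 80.9) of its group. It also had the lowest Slc16a1 share of both carriers per kb (7.73%, others 9.26% to 10.1%), the lowest ratio of Mpc1 to Mpc2 per kb (0.394, others 0.687 to 0.806), and the highest fast muscle marker sum (217483 CPM, others 139059 to 160124).

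Elsewhere fatigued control 5 had the highest Slc16a1 of its group (71.9 CPM, others 40.6 to 52.1) and the lowest fast muscle sum (177054 CPM, others 210297 to 227841). Fatigued PBMT 1 had the highest Bsg (565 CPM, others 445 to 482), fatigued control 4 the highest Pdk1 (73.0 CPM, others 61.1 to 65.5) and sedentary PBMT 5 the highest Pdk3 (1.67 CPM, others 0.821 to 1.04). Among marker sums, sedentary control 1 was highest for myeloid cells (135 CPM), sedentary PBMT 2 for adipocytes (313 CPM) and fatigued PBMT 5 for fibroblasts (3053 CPM). The keratinocyte sum stood out in sedentary control 3 (5.29 CPM), sedentary PBMT 4 (25.6 CPM) and fatigued control 2 (4.41 CPM).

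The light effect on Nfil3 differed between fatigued and sedentary mice by 1.11 log2 in the test of that difference, the single gene called there by edgeR.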

How the results depend on the processing

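Of 1115 values of the 10 genes under the alternatives, 100 changed sign, all of them uncalled and at most 0.13 in size, and none of the 10 genes was called in the light comparisons or in the difference of light effects. The calls of Mpc2 in controls and of Mpc1 in PBMT mice held in all of their alternatives, and those of Mpc2 and Pdk1 in PBMT mice did not, as given with their values. Pdk3 had 28 to 89 counts per mouse, the lowest of the 10 genes, and the part of depth in its spread was not tested. No scaling moved the median of all genes by more than 0.066 log2 (the largest shift was -0.066). The cause of the changes below was not tested.

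For light at rest, where 4 genes were called, no filter gave 16 calls, DESeq2 60 and all 24 mice in the fit 1. Leaving out a mouse gave 2 to 20 calls, with 2 without sedentary control 1, 2 or 6, 18 without sedentary control 4, 10 without sedentary PBMT 2, 7 without sedentary PBMT 4 and 20 without sedentary PBMT 5. For light after the run, with 0 calls by edgeR, 157 genes higher and 73 lower at an unadjusted p under 0.05 and 0 calls by limma voom, DESeq2 gave 2, and leaving out a mouse gave 0 to 0. For the run in controls, with 2366 calls, leaving out a mouse gave 1681 to 3956, the highest without sedentary control 4. The difference of light effects had 1 call, and 1 to 3 when a mouse was left out, with 3 without sedentary PBMT 2.

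Signs of uncalled log2 differences changed as follows. With at least 10 counts in every mouse, Pdk1 for light at rest was -0.0035, and for the run in controls Ldha was -0.0067 and Bsg -0.0013. Raw library totals gave -0.036 for Pdk1 under light at rest, -0.068 for Ldha and -0.061 for Bsg after the run in controls, -0.013 for Slc16a3 after the run in PBMT mice, and 0.026 for Ldha, 0.013 for Mpc1 and 0.016 for Pdk1 in the difference of light effects. With all 24 mice in the fit, Pdk1 for light at rest was -0.00093, and after the run in controls Ldha was -0.0068 and Bsg -0.0014. DESeq2 size factors gave -0.0029 for Ldha after the run in controls. By limma voom, Mpc1 for light at rest was 0.023, and after the run in controls Ldha was -0.0012 and Pdk3 0.015.

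Leaving out each mouse in turn changed the sign of further uncalled values. For light at rest, the log2 differences ranged from -0.083 to 0.0022 for Ldha, from -0.00040 to 0.20 for Slc16a1, from -0.12 to 0.037 for Mpc1, from -0.073 to 0.0025 for Pdha1, from -0.060 to 0.030 for Pdk1, from -0.048 to 0.28 for Pdk3. For light after the run, the log2 differences ranged from -0.069 to 0.0035 for Bsg, from -0.074 to 0.011 for Mpc1, from -0.057 to 0.024 for Pdk1, from -0.13 to 0.086 for Pdk3. For the run in controls, the log2 differences ranged from -0.050 to 0.054 for Ldha, from -0.043 to 0.16 for Slc16a1, from -0.064 to 0.057 for Slc16a3, from -0.034 to 0.035 for Bsg, from -0.12 to 0.12 for Pdk3. For the run in PBMT mice, the log2 differences ranged from -0.057 to 0.020 for Ldha, from -0.056 to 0.066 for Slc16a3, from -0.27 to 0.039 for Pdk3. For the difference of light effects, the log2 differences ranged from -0.082 to 0.030 for Ldha, from -0.064 to 0.18 for Slc16a1, from -0.057 to 0.078 for Slc16a3, from -0.078 to 0.082 for Mpc1, from -0.10 to 0.027 for Pdha1, from -0.061 to 0.031 for Pdk1, from -0.27 to 0.055 for Pdk3.

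The labels do not say what a replicate number marks, and as correlations over 0.1 were not found in every pair, the numbers were not taken to pair the mice. Deviations of mice with the same number correlated at -0.072 to 0.066 for light at rest, -0.085 to 0.33 for light after the run, -0.13 to 0.031 for the run in controls and -0.27 to 0.0082 for the run in PBMT mice. Correlations over 0.1 were found in 0, 4, 0 and 0 of 6 pairs, and the mouse with the same number was the best match for 1, 3, 0 and 0 of 6 mice. A shared source of the mice in light after the run is thus not excluded. With the replicate number as a block, 11 genes were called for light at rest, 1 for light after the run, 1714 and 2768 for the run in controls and PBMT mice, and 1 for the difference of light effects. The replicate block gave 0.020 for Mpc1 under light at rest and -0.0014 for Ldha after the run in controls, and of the 10 genes it changed the call of Pdk1 in PBMT mice (adjusted p 0.105). Among the other genes named, the block ended the calls of Myc in controls (0.0516) and of Pdk4 (0.0925), Emb (0.113) and Ppargc1b (0.0530) in PBMT mice, and it changed no other call of the pathway genes and regulators called. The alternatives for pathway genes, regulators and markers, and the sum of Mpc1 and Mpc1-ps, were chosen after seeing the data.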
